A study of Mus musculus with 18 samples.

Results

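The report is about 10 immediate early genes, the AP-1 genes Fos, Fosb, Fosl1, Fosl2, Jun, Junb and Jund, the EGR genes Egr1 and Egr2, and Ier3, out of the 54347 genes of the deposited table. The rule lists them by name, though they were proposed with earlier results of these data known, and each was found as 1 row with a value in all 18 libraries. AP-1 is a transcription factor made of pairs of FOS and JUN proteins, which bind DNA together through a basic leucine zipper. JUN proteins can also pair with each other, while FOS proteins need a JUN partner. EGR proteins are zinc finger factors that bind GC-rich elements, and IER3 is a small stress-induced protein that modulates cell survival and ERK signalling. Immediate early genes are switched on within minutes by serum, stretch and other signals, through MAP kinases acting on factors such as SRF with its ELK partners and through MRTF, which actin monomers hold back. Some members, such as Jund and Fosl1, are also expressed steadily in adherent cells.

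RNA-seq was performed on marrow-derived mesenchymal stem cells (MSC) of C57BL/6J mice, adherent cells grown as a primary line pooled from several male animals, so the 3 libraries of a condition are 3 preparations of 1 line and not separate animals. P-values therefore measure the spread between preparations. The first experiment used untransfected cells, either untreated (control), treated with CK666, which blocks branching of actin by the Arp2/3 complex, or treated with cytochalasin D (CytoD), a fungal toxin that stops actin filaments from growing. In the second, all cells were transfected overnight in serum-free medium, with a control siRNA (siControl), with an siRNA against Arp4 (siArp4), or with the Arp4 siRNA followed by CK666 (siArp4+CK666). Actl6a encodes Arp4, an actin-related protein of chromatin complexes in the nucleus. RNA was taken a day after treatment, so the values are levels at a late time and not the early peak that gives these genes their name. A siControl group given CK666 was not analysed here. The questions were how disturbed actin branching or disturbed filaments alter transcription, and how far Arp4 takes part in the response to CK666.

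Total estimated counts ran from 18075610 to 24733212 per library. The mitochondrial share of these counts ran from 1.36% to 1.89% in untransfected libraries and from 2.67% to 3.36% in knockdown libraries. In siControl it was 2.65%, 1.30% and 2.37%, and its part in the results was not tested. The knockdown target Actl6a was at 906 ± 227 normalized counts (SD, n = 3) in siControl, and knockdown left 42.7 ± 20.1 (siArp4) and 17.0 ± 7.20 (siArp4+CK666). Of 8 mesenchymal markers 5 or 6 reached a mean of 10 normalized counts in each group, but Thy1 was under 1 in all 6 groups. The mesenchymal sum ran from 99604 to 105755 in control, 42279 to 48975 in CK666, 166358 to 175950.0 in CytoD, 81159.8 to 114987 in siControl, 108070.0 to 116889 in siArp4 and 58168 to 63956 in siArp4+CK666, and 5 of 6 markers tested were called lower in CK666 than in CytoD. Of 8 haematopoietic markers 4 reached a mean of 10 in every group, with sums from 147 to 388 over all libraries, while Ptprc, Itgam and Spi1 were under 1. Cd68 (1.42) and Lyz2 (1.08), 2 of the 4 tested, were called higher with CytoD. Sums of 5 endothelial markers ran from 3.94 to 25.7, with Cdh5 and Emcn under 1 in every group, and those of 5 osteoblast markers from 1.96 to 64.3, highest in CytoD. The sum of 5 adipocyte markers ran from 896 to 905 in control, 1654 to 2469 in CK666, 2213 to 2567 in CytoD, 2148 to 3012 in siControl, 1191 to 1356 in siArp4 and, at its highest, 3523 to 4314 in siArp4+CK666, and the part of these markers in the results was not tested. In bulk samples such as these, fewer cells of a type and less RNA per cell cannot be told apart.

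The siControl libraries stood apart from each other before any comparison. The deviation of siControl replicate 1 from the other libraries of its group had a Spearman correlation of 0.522 with transcript length and -0.411 with GC content over 13068 genes, and siControl replicate 2 had -0.451 and 0.432. In siControl replicate 2 the tenth of genes with the highest GC content lay a median of 0.649 log2 units above the mean of the other libraries of the group. CK666 replicates 1 and 2 (-0.552 and 0.516 with length) and siArp4+CK666 replicates 1 and 3 (0.488 and -0.474) showed trends with length too. The members differ in these properties: Jund has the highest GC content (67.1%, percentile 99.8 among expressed genes), Junb comes next (62.6%, percentile 98.6) and Ier3 is the shortest (1131 bases, percentile 7.74), while Jun, Egr2 and Fosb lie between percentiles 42.9 and 59.3 for length. Fosl2 is the longest (6537 bases, percentile 89.2). For GC content Jun, Fosb, Egr1 and Fosl1 lie between percentiles 80.4 and 91.8. Every comparison was therefore repeated with the length and GC trend of each library removed, a setting added after the data were seen. The trend removed was that against the mean of all libraries fitted, not of the group alone. Differences between groups that follow length or GC content are therefore removed too, and cannot be told apart from library trends. The second caution is strand. The libraries were unstranded, and Fosl1 shares 1163 exon bases with Ccdc85b on the opposite strand, Jund 877 bases with the antisense RNA Gm11175, Jun 232 bases with Junos and Junb 173 bases with Prdx2. Levels of Fosl1, Jund and Junb are therefore uncertain wherever the neighbour is abundant.

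**Figure D1:**
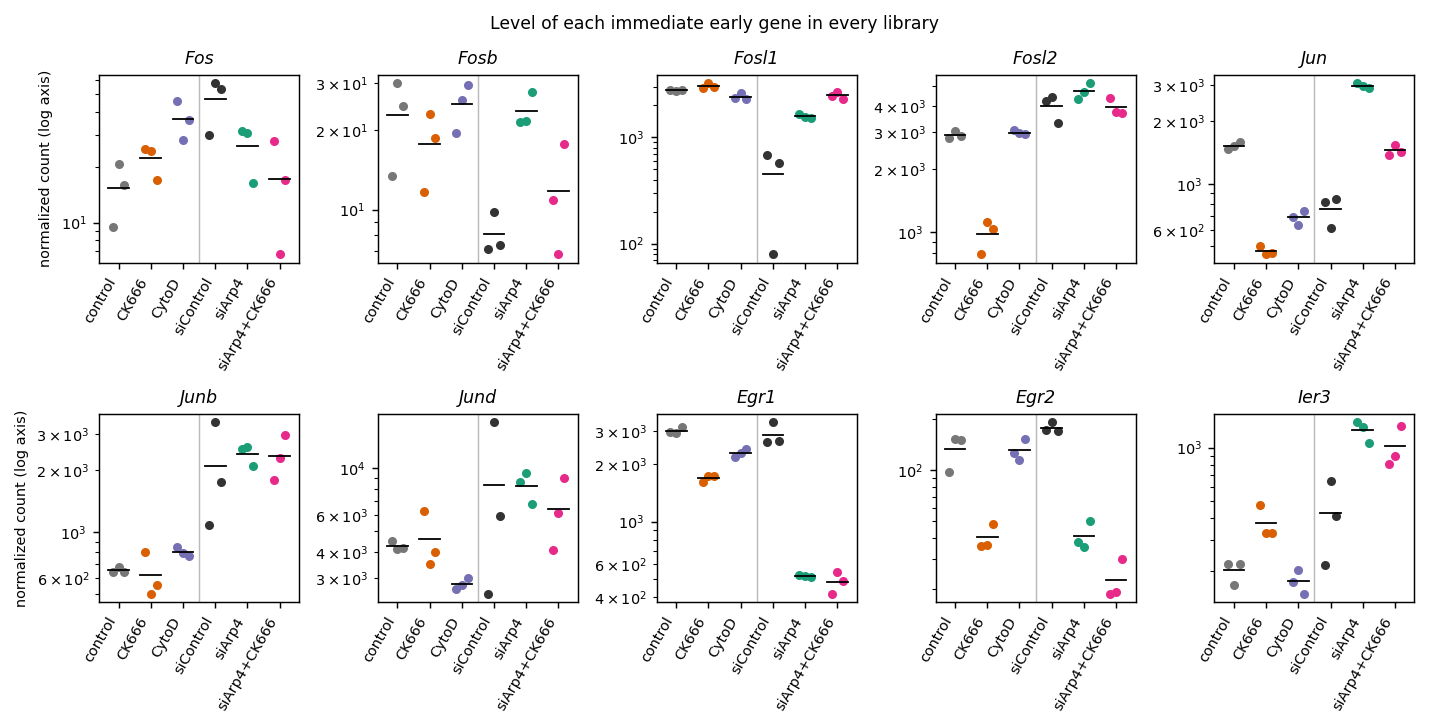
Normalized counts (log axis, scaled over all 18 libraries) of the 10 genes, with 1 point per library and a line at the mean of 3. Jun, Fosl2, Egr1 and Egr2 form tight groups, while the siControl libraries of Fosl1, Junb, Jund and Ier3 are widely spread (Jund from 2526 to 16593).

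In control cells the members spanned a wide range of levels, here given as normalized counts per kilobase of exon so that genes can be compared. Jund was the highest at 2551 ± 125 (SD, n = 3), followed by Fosl1 at 1372 (range 1358 to 1388), Egr1 at 670.0 ± 28.7 and Jun at 478 ± 19.4. Fosl2 at 301 ± 12.1 and Junb at 284 ± 8.67 came next, with overlapping ranges. Ier3 was at 179 ± 27.0 and Egr2 at 39.4 ± 9.27, while Fos at 6.58 ± 2.46 and Fosb at 3.63 ± 1.37 were close to the floor of the data, again with overlapping ranges. Nearly all transcript of the FOS family was therefore that of Fosl1 and Fosl2.

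CK666 lowered a JUN gene, a FOS gene and an EGR gene in untransfected MSC. Jun, Fosl2 and Egr2 were called lower than control, which were all the calls, where a call means an absolute log2 fold change over 1 and a DESeq2 adjusted p below 0.01. Over all 14597 genes tested 11% were called, against 3 of the 10 members. The median log2 fold change was -0.20 over the members and 0.01 over all genes. By the adjusted p alone 5 members passed, against 30% of all genes, and the groups did not overlap for 6 members, against 47.3%.

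Jun (ENSMUSG00000052684.4, chromosome 4 from 95049034 to 95052222 of GRCm38, minus strand, 1 exon) encodes the transactivating JUN subunit. Its normalized counts were 1468, 1519 and 1591 in control, 503, 457 and 464 in CK666 and 692, 634 and 739.8 in CytoD. Every treated library lay below every control library. The log2 fold change was -1.67 (SE 0.11, adjusted p 1.09e-51) with CK666, a 3.18-fold fall, and -1.15 (SE 0.11, adjusted p 1.46e-25) with CytoD. Jun was the only member called lower with both compounds, which were compared with the same control libraries, and the CK666 libraries lay below the CytoD libraries (-0.52, adjusted p 1.74e-05), which is short of a call. Its antisense neighbour Junos had a mean of 16.6 estimated counts, against 1331 for Jun.

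Fosl2 (ENSMUSG00000029135.10, chromosome 5 from 32135801 to 32157842, plus strand, 4 exon blocks) encodes FRA2, a FOS protein without the strong activation domain of FOS. It was at 2817, 3045 and 2885 normalized counts in control, 787, 1124 and 1039 in CK666 and 3057, 2957 and 2944 in CytoD. The CK666 libraries stood far below the others and CytoD overlapped with control. The log2 fold change was -1.55 (SE 0.13, adjusted p 3.64e-30) with CK666 and 0.03 (95% interval -0.23 to 0.29) with CytoD. The direct contrast of CK666 with CytoD gave -1.58 (SE 0.13, adjusted p 2.21e-31). CK666 replicate 1, the lowest, is the library with a correlation of -0.552 with length, and Fosl2 is the longest member. With the trends removed the value against control was -1.45 (SE 0.06).

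Egr2 (ENSMUSG00000037868.15, chromosome 10 from 67535475 to 67542188, plus strand, 5 exon blocks) encodes KROX20, known for its roles in myelination and in connective tissue cells. Its counts were 97.7, 153 and 152 in control, 36.0, 36.2 and 48.6 in CK666 and 126, 115 and 152 in CytoD. As for Fosl2, the CK666 libraries were all lower and CytoD overlapped with control. CK666 gave -1.72 on the log2 scale (SE 0.28, adjusted p 7.53e-09) and CytoD -0.03 (95% interval -0.53 to 0.48). The contrast of CK666 with CytoD was -1.69 (SE 0.28, adjusted p 1.33e-08).

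Egr1 (ENSMUSG00000038418.7), the best known EGR gene, gave smaller differences. It was at 2942, 2918 and 3153 in control, 1606, 1743 and 1744 in CK666 and 2194, 2300.4 and 2397 in CytoD. The 3 groups did not overlap and were ordered control, CytoD, CK666. The log2 fold change was -0.81 (SE 0.09, adjusted p 2.38e-19) with CK666 and -0.39 (SE 0.09, adjusted p 3.41e-05) with CytoD, both under the fold change minimum and so not calls.

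Ier3 (ENSMUSG00000003541.6, chromosome 17 from 35821684 to 35822923, plus strand) had the opposite sign with CK666. Counts were 221, 167 and 219 in control, 471, 330.4 and 329 in CK666 and 175, 202 and 149.9 in CytoD. The CK666 libraries were above all others, with 0.91 on the log2 scale over control (SE 0.21, adjusted p 1.11e-04), under the minimum, and a call over CytoD at 1.12 (SE 0.22, adjusted p 1.34e-06). CK666 replicate 1, the highest, is the library with a correlation of -0.552 with length, and Ier3 is the shortest member. Without that library the contrast with CytoD was 0.93 and no longer a call, and with the trends removed it was 1.14 (SE 0.17).

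The remaining AP-1 genes passed no call with either compound. Fosl1 was at 2782, 2762 and 2822 in control, 2915, 3248 and 2994 in CK666 and 2373, 2597 and 2315 in CytoD. Jund, whose product is the steady JUN subunit of resting cells, ranged from 4105 to 4493 in control, 3508 to 6289.9 in CK666 and 2653 to 3008 in CytoD. Its log2 fold change with CytoD was -0.60 (SE 0.19, adjusted p 0.00657), under the minimum, and edgeR gave an adjusted p of 0.0287. Junb, a JUN protein that can restrain JUN, ranged from 640.0 to 677 in control, 505 to 804 in CK666 and 771 to 851 in CytoD. Fos was at 9.46, 21.0 and 16.0 in control and 45.6, 28.3 and 36.4 in CytoD, groups that did not overlap, but a log2 fold change of 1.24 (SE 0.46) had an adjusted p of 0.0192 at these low counts. Fosb overlapped between all 3 groups, from 11.7 to 30.0. In all, 1 of 10 members was called for CytoD against 9.12% of 13717 genes, and 3 of 10 between the compounds, with Fosl2 and Egr2 lower and Ier3 higher in CK666, against 11.8% of 15038 genes. By the adjusted p alone 3 members passed for CytoD against 29.6% of genes, and 7 between the compounds against 31.8%. Groups did not overlap for 6 members with CytoD against 58.9% of genes, and for 8 between the compounds against 49.1%.

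**Figure D2:**
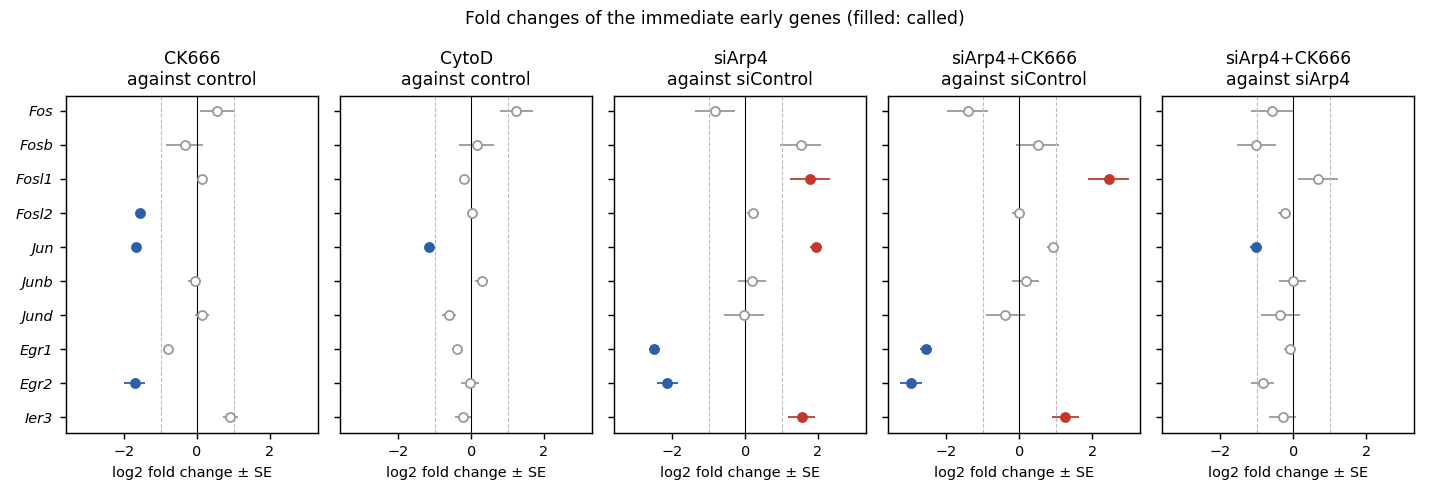
Log2 fold change (x axis) of each member with its standard error in 5 comparisons. Blue filled points are called lower, red filled points called higher, open points not called, and dashed lines mark the fold change minimum of 1. Jun, Fosl2 and Egr2 are lower with CK666, and Egr1 and Egr2 are lower while Jun, Fosl1 and Ier3 are higher with siArp4.

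The bases before the start of Jun and Egr2 are shown because these genes fell together with CK666 and moved in opposite directions after Arp4 knockdown. Fos is shown beside them as the AP-1 gene whose signal response is best known and which stayed near the floor. Sequences are from RefSeq on GRCm38.p6 and run 5′ to 3′ on the strand of the gene, ending at the base before the start. Capitals mark matches, on either strand, to the AP-1 element TGANTCA, the CRE-like element TGACNTCA, the CRE core TGACG, which a CRE-like element with G in its open place also holds, the EGR element GCGNGGGCG, the CArG box bound by SRF, or the MEF2 element.
Jun, chr4:95052223-95052472, minus strand: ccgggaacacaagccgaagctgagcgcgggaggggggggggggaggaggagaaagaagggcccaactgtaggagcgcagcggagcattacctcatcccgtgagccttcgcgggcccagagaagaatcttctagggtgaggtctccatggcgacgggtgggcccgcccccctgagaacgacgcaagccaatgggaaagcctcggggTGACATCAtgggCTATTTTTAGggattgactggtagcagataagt
Egr2, chr10:67537619-67537868, plus strand, the third of 5 RefSeq windows and inside the annotated span of longer Egr2 transcripts but in no exon: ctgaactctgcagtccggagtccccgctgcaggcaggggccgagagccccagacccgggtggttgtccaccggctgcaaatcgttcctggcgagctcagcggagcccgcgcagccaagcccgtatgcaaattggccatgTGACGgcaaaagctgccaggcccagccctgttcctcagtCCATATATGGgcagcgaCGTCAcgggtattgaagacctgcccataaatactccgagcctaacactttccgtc
Fos, chr12:85473640-85473889, plus strand: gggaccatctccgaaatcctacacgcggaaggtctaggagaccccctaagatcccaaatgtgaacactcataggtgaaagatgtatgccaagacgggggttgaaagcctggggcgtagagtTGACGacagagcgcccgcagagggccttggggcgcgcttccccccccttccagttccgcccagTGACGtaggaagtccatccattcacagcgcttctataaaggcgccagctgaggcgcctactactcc
The Jun stretch held a CRE-like element, 45 to 38 bases before the start, and a MEF2 element, 33 to 24 bases before it. The Egr2 stretch held a CArG box, 72 to 63 bases before the start, and 2 CRE cores, and the Fos stretch held 2 CRE cores. Bases farther than 250 before the start were not searched, so elements of Fos or of other members there are not seen. Among all 32851 windows of 250 bases, 7.49% held the CRE-like element, 2.92% the MEF2 element, 1.47% the CArG box, 17.8% the CRE core, 6.75% the AP-1 element and 4.7% the EGR element. An EGR element was found before the RefSeq start of Fosb, and in the Fosl2 window, which lies wholly within annotated Fosl2 exons. RefSeq windows were matched for 8 members, and none was used for Fosl1 and Egr1. A match is a string in this window and was not tested as a binding site.

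After Arp4 knockdown both EGR genes were lower and 3 other members higher. Egr1 and Egr2 were called lower in siArp4 than in siControl, and Jun, Fosl1 and Ier3 were called higher, 5 of 10 members against 16.2% of 15415 genes. The median log2 fold change was 0.21 over the members and -0.05 over all genes. The same 5 passed by the adjusted p alone, against 25.1%, and groups did not overlap for 6 members, against 43.5%. The count without siControl replicate 2 was also 5, with 2294 genes in all in place of 2494. By edgeR 3 members (Jun, Egr1 and Egr2) were called, and 1752 genes in all in place of 2494.

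Egr1 was at 2610.1, 3317 and 2634 normalized counts in siControl, 523, 517 and 509 in siArp4, then 419, 540.2 and 486 with CK666 added. All 6 knockdown libraries were below all siControl libraries, and the knockdown groups overlapped with each other. The log2 fold change was -2.49 (SE 0.16, adjusted p 1.40e-49) in siArp4, a 5.61-fold fall, and -2.57 (SE 0.16, adjusted p 6.66e-53) in siArp4+CK666. Between the knockdown groups it was -0.08 (95% interval -0.41 to 0.25).

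Egr2 was at 173, 191 and 170.5 in siControl, 37.7, 35.2 and 50.2 in siArp4, then 18.8, 19.1 and 29.9 with CK666 added. The 3 groups did not overlap. Relative to siControl, siArp4 gave a log2 value of -2.14 (SE 0.28, adjusted p 5.68e-13). The value of siArp4+CK666 was -2.97 (SE 0.30, adjusted p 5.67e-21). The further step between the knockdown groups, -0.84 (SE 0.32, adjusted p 0.0633), did not pass.

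Jun was at 818, 610.3 and 847 in siControl, 3063, 2975 and 2888 in siArp4, then 1380.2, 1539.7 and 1425 with CK666 added. The groups did not overlap and siArp4 was the highest of all 6 groups of the study. In siArp4 Jun rose 3.85-fold (log2 1.94, SE 0.17, adjusted p 5.63e-27). In siArp4+CK666 it was above siControl by 0.92 (SE 0.17, adjusted p 1.05e-06), under the minimum, and 1.09 (SE 0.20, adjusted p 3.78e-07) with the trends removed. Against siArp4 it fell by 1.02 (SE 0.17, adjusted p 1.27e-07), the 1 member called there against 5.75% of 14098 genes (9.9% by the adjusted p alone), and groups did not overlap for 4 members, against 37.8%. That value sits at the minimum: it was -0.99 without siArp4+CK666 replicate 1, -0.999 without replicate 3 and -0.97 with the trends removed, none of them a call.

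Fosl1 (ENSMUSG00000024912.6, chromosome 19 from 5447547 to 5455946, plus strand, 4 exon blocks) encodes FRA1, the FOS protein typical of adherent and migrating cells. It was at 689, 79.5 and 577 normalized counts in siControl, 1652, 1564 and 1513 in siArp4, then 2465, 2705 and 2287 with CK666 added. The groups did not overlap, and siControl replicate 2 lay far below the others of its group. The log2 fold change was 1.78 (SE 0.56, adjusted p 0.00615) in siArp4 and 2.45 (SE 0.56, adjusted p 6.50e-05) in siArp4+CK666. By edgeR the adjusted p was 0.0497 and 0.0126, and without siControl replicate 2 the log2 fold changes were 1.27 and 1.95, both calls. Without any 1 of the 3 siArp4 libraries, or without siArp4+CK666 replicate 2, the siArp4 value was no call (1.74 to 1.81). With the trends removed the siArp4 value was 1.81 with an adjusted p of 0.0655.

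Ccdc85b, the gene that shares exon bases with Fosl1, was at 2396, 13992 and 5009 normalized counts in siControl, highest where Fosl1 was lowest, and at 5309, 5458 and 4282 in siArp4. In the untransfected libraries Ccdc85b ran from 1421 to 2765 and Fosl1 from 2315 to 3248. Fosl1 and Ccdc85b together came to 3085, 14072 and 5587 in siControl and 6961, 7022 and 5795 in siArp4. The share of their common reads that belongs to each gene was not tested.

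**Figure D3:**
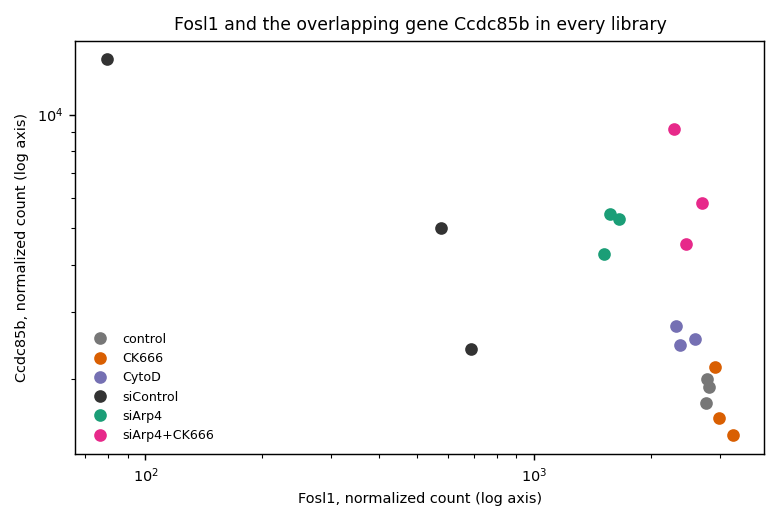
Normalized counts of Fosl1 (x, log axis) and of the overlapping gene Ccdc85b (y, log axis), with 1 point per library coloured by group. The siControl libraries are the most spread, and 1 of them has the lowest Fosl1 (79.5) and the highest Ccdc85b (13992).

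Ier3 was at 217, 647 and 410.0 in siControl, 1388, 1308 and 1068 in siArp4, then 812, 899.9 and 1332 with CK666 added. Both knockdown groups lay above siControl and overlapped with each other. The log2 fold change was 1.55 (SE 0.37, adjusted p 1.73e-04) in siArp4 and 1.26 (SE 0.37, adjusted p 0.00249) in siArp4+CK666, while edgeR gave adjusted p of 0.0104 and 0.0211. The siArp4+CK666 value was no call without siControl replicate 1 (0.95) or 3 (1.24) or siArp4+CK666 replicate 3 (1.03). With the trends removed the values were 2.03 (SE 0.12, adjusted p 1.05e-61) and 1.86 (SE 0.12, adjusted p 3.78e-51), with smaller errors.

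The other AP-1 members were not called. Fosl2 was at 4216, 4397 and 3321 in siControl, 4315, 4659.5 and 5138 in siArp4, then 4373, 3741 and 3688 with CK666 added, and its groups overlapped in every pair. Junb was at 1085, 3421 and 1762 in siControl, against 2103 to 2606 in siArp4. Prdx2, which shares exon bases with Junb, was at 4151, 23894 and 9447 in siControl, against 1865 to 2562 in siArp4. Jund was at 2526, 16593 and 5948 in siControl, against 6726 to 9465 in siArp4. With the trends removed, Junb was above siControl by 0.68 in siArp4 (SE 0.10, adjusted p 5.06e-10) and by 0.75 in siArp4+CK666 (SE 0.10, adjusted p 2.91e-12), under the minimum, where the deposited counts gave 0.19 and 0.17 with an SE of 0.38. Jund changed sign, from -0.03 (SE 0.54) to 0.68 (SE 0.21, adjusted p 0.00450) in siArp4. Fosb was at 7.08, 9.76 and 7.36 in siControl and 21.4, 21.5 and 27.9 in siArp4, which gave 1.52 on the log2 scale (SE 0.56, adjusted p 0.0231) and 1.64 (adjusted p 0.00926) with the trends removed. Fos was at 29.9, 57.5 and 53.5 in siControl, 31.6, 30.8 and 16.4 in siArp4, then 27.9, 6.74 and 17.1 with CK666 added, and was not called. Its siArp4+CK666 libraries lay below siControl (log2 -1.42, SE 0.56, adjusted p 0.0329). That value was a call in the fit of all 18 libraries (-1.42) and without siArp4+CK666 replicate 1 (-1.97). In siArp4+CK666 against siControl 4 members were called, Egr1 and Egr2 lower and Fosl1 and Ier3 higher, against 20.4% of 15415 genes. Jun also passed by the adjusted p alone, 5 members against 29.9%, and groups did not overlap for 6 members, against 43.2%.

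**Figure D4:**
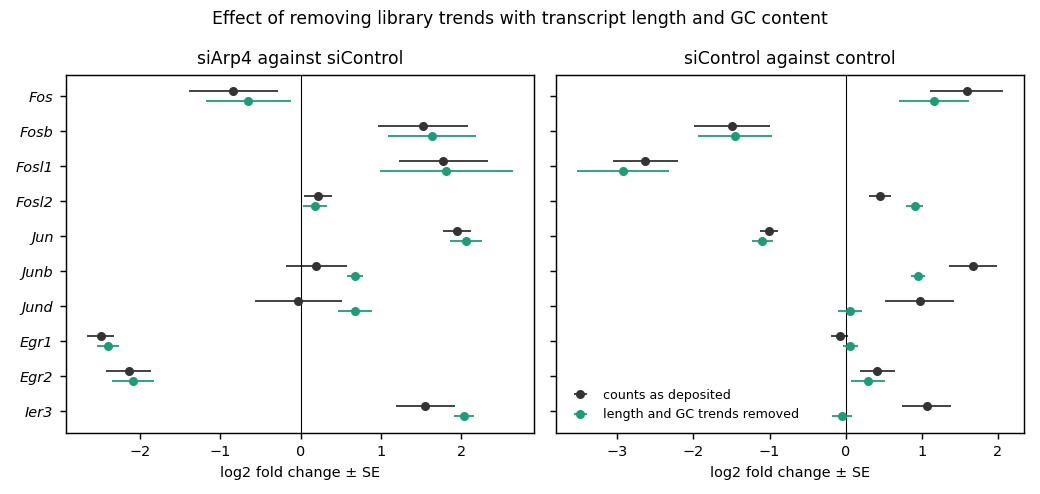
Log2 fold change with its standard error for each member, from the counts as deposited (black) and with the trends of each library with transcript length and GC content removed (green). The intervals of Junb, Jund and Ier3 shrink and those of Fosl1 and Jun widen. Ier3 moves from 1.55 to 2.03 in siArp4 and from 1.06 to -0.05 in siControl against control.

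The response of Fosl2 to CK666 differed between the experiments. CK666 lowered Fosl2 in untransfected cells (-1.55, SE 0.13), and in siArp4 cells the same contrast gave -0.24 (SE 0.17, adjusted p 0.452). The difference of both effects, tested over all 18 libraries, was 1.31 on the log2 scale (SE 0.20, adjusted p 7.11e-09), the 1 member called of 10 against 4.42% of 13511 genes. It was 1.11 (SE 0.16, adjusted p 9.76e-11) with the trends removed. For Egr1 the difference was 0.73 (SE 0.17, adjusted p 2.92e-04) and for Jun 0.64 (SE 0.16, adjusted p 0.00175), both under the fold change minimum, so that 3 members passed by the adjusted p alone against 7.82% of genes. For Egr2 it was 0.87 (SE 0.40, adjusted p 0.139) and for Ier3 -1.20 (SE 0.44, adjusted p 0.0511), and neither passed. The knockdown, the transfection and the experiment change together in this difference and cannot be told apart.

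The levels of the members also differed between siControl and untreated control cells, where transfection and experiment cannot be told apart. Called higher in siControl were Fos, Junb and Ier3, and called lower were Fosb, Fosl1 and Jun, 6 of 10 against 24.1% of 14491 genes. By the adjusted p alone 7 passed, Fosl2 (0.45) added, against 42.1%, and groups did not overlap for 7 members, against 51.5%. Fosl1 had the largest difference, with log2 fold change -2.63 (SE 0.43, adjusted p 7.12e-09), and Junb followed with 1.67 (SE 0.31, adjusted p 6.00e-07). Prdx2, which shares exon bases with Junb, was called higher too (1.71, SE 0.43). It reached 23894 normalized counts in siControl replicate 2, where Junb was highest. The share of their common reads that belongs to each gene was not tested. Jun differed by -1.004 (SE 0.12, adjusted p 2.13e-16), at the minimum. Ier3 was called although its groups overlapped. Without siControl replicate 2 only Fosl1 (-2.14) and Junb (1.12) were called, and with the trends removed only Fosb (-1.45), Fosl1 (-2.92) and Jun (-1.09) were. Calls over all genes fell too with the trends removed, to 2643 from 3498. Those without siControl replicate 2 are not given. Ier3 went from 1.06 to -0.05 with the trends removed. Egr1 differed by -0.08 (95% interval -0.29 to 0.14).

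The make-up of AP-1 transcript was read per length over the 7 FOS and JUN genes. In control cells Jund made up 51.0% ± 1.57 (SD, n = 3) and Fosl1 27.5% ± 0.547, with Jun at 9.58% ± 0.507, Fosl2 at 6.03% ± 0.346 and Junb at 5.69% ± 0.267. Fos reached at most 0.527% and Fosb at most 0.123% in any of the 18 libraries. With CK666 the share of Jun was 3.15% ± 0.382 and that of Fosl2 2.21% ± 0.717, both ranges below control, and the JUN family together held 65.4% ± 7.59 against 66.3% ± 0.888. In siArp4 the share of Jun was 11.5% ± 1.17 and that of Fosl1 9.52% ± 0.945, and in siArp4+CK666 6.76% ± 1.49 and 18.3% ± 4.93. The JUN family ran from 74.0% to 95.7% in the siControl libraries, the widest range of any group. The total per kilobase was 4997 ± 91.9 in control, 4792 ± 883 in CK666, 3777 ± 81.9 in CytoD, 6808 ± 4753 in siControl, 8206 ± 962 in siArp4 and 6957 ± 1657 in siArp4+CK666. These shares lean on Jund, the member most exposed to the GC trend, and on Fosl1, which shares reads with Ccdc85b.

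**Figure D5:**
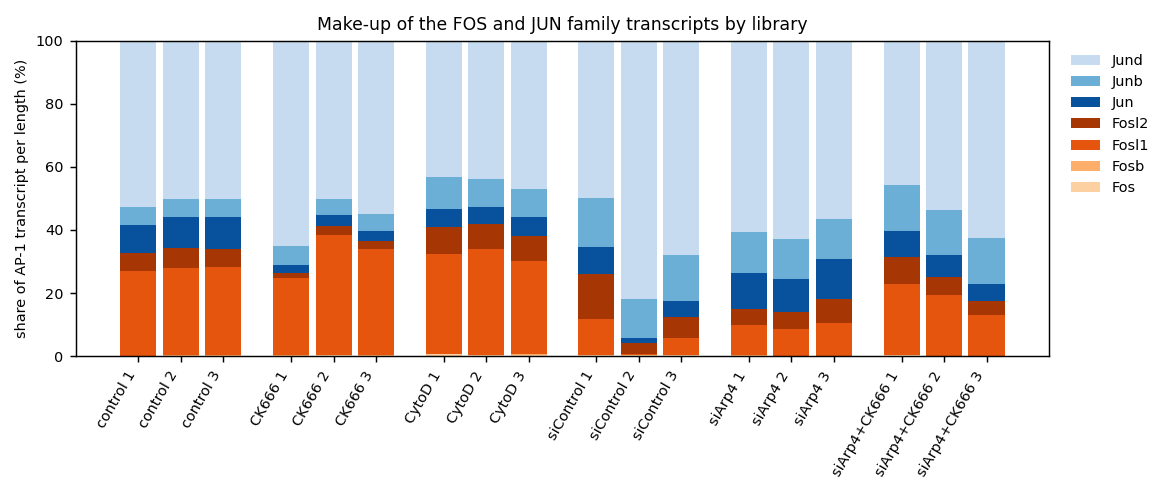
Share (%) of each FOS and JUN gene in the summed normalized count per kilobase of the 7 genes, with 1 bar per library. Jund and Fosl1 fill most of every bar in control (51.0% and 27.5% on average), the Jun and Fosl2 bands are thin in CK666, and the siControl bars differ most among themselves.

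Other bZIP genes whose products can pair with AP-1 proteins included Atf3, with a larger CK666 difference than any member. Of 13 listed genes 9 were tested with CK666, and the 3 called were all higher. Atf3, a stress-induced partner of JUN, was at 1091 normalized counts in CK666 against 57.5 in control (log2 fold change 4.25, SE 0.23, adjusted p 1.66e-72), Atf4, the driver of the amino acid and ER stress response, gave 1.43 and Mafg 1.18. CytoD lowered Atf4 (-1.34) and raised Maf (1.48). Atf3 was called higher in siArp4 too (1.37, SE 0.29), and by 3.51 (SE 0.23, adjusted p 6.32e-48) in siArp4+CK666 over siArp4, so its CK666 contrast was large in both experiments. Among 4 EGR relatives, of which 3 were tested, Egr3 was called lower with CK666 (-1.63, SE 0.20), in siArp4 (-1.11, SE 0.28) and in siArp4+CK666 (-2.02, SE 0.29). Nab1, a corepressor of EGR proteins, was called lower in siArp4+CK666 (-1.25), though not by edgeR. Over all genes tested 11% were called with CK666, 9.12% with CytoD and 16.2% in siArp4. In siArp4+CK666 20.4% were called against siControl and 5.75% against siArp4.

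Other immediate early genes made a list of 25. With CK666 6 were called lower and 1 higher, of 24 tested. Ccn2, a matricellular gene driven by SRF and YAP, went from 30860.0 to 2177 normalized counts (-3.81, SE 0.10), Rhob, a small GTPase, fell by 2.34 (SE 0.09) and Gadd45g fell by 2.13 (SE 0.21). With CytoD the 7 called were all lower, with Ccn2 at -3.20 (SE 0.10), Ptgs2, the inducible cyclooxygenase, at -2.67 (SE 0.15) and Myc at -1.77 (SE 0.13). Ptgs2 was the 1 gene called higher with CK666 (1.10). In siArp4 5 were called higher and 5 lower of 25, with Rhob at 2.61 (SE 0.18), Btg2, an antiproliferative gene, at -2.31 (SE 0.13) and Ier2 at -2.21 (SE 0.48). In siArp4+CK666 against siArp4 the 5 called were all lower, with Ccn2 at -3.61 (SE 0.13), Rhob at -1.76 (SE 0.18) and Ccn1 at -1.48 (SE 0.15). Median log2 fold changes over the list were -0.38 for CK666, -0.57 for CytoD, 0.09 for siArp4 and -0.43 for siArp4+CK666 against siArp4. The shares called over all genes tested were 11%, 9.12%, 16.2% and 5.75% in the same order.

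Among 7 factors upstream of these genes, Mrtfa, the actin-sensing cofactor of SRF, was called lower with CK666 (2187 to 805 normalized counts, -1.43, SE 0.15) and Srf with CytoD (1912 to 943, -1.02, SE 0.13). The Mrtfa transcript responded differently to CK666 in siArp4 cells (difference 1.23, SE 0.20, adjusted p 4.51e-08). Of 10 MAP kinase genes, 9 of them tested, 3 were called lower in siArp4, Mapk3, which encodes ERK1 (-2.06, SE 0.36), Mapk11 (-1.85, SE 0.37) and Mapk12 (-2.06, SE 0.37). The siControl level of Mapk3 was 6263 ± 3449. Of 18 feedback genes of the MAP kinases Dusp4, a nuclear phosphatase of ERK and JNK, was called higher with CK666 (1.57, SE 0.15) and Dusp7 lower (-1.27, SE 0.09), 3 were called lower with CytoD, among them Dusp5 (-1.53) and Phlda1 (-1.18), and in siArp4 4 were called higher, led by Dusp10 (1.90, SE 0.17) and Dusp5 (1.57), and 2 lower, among them Etv4 (-1.55), which edgeR did not call. Over all genes tested 11% were called with CK666, 9.12% with CytoD and 16.2% in siArp4. The CK666 counts, 1 of 7 upstream factors and 2 of 18 feedback genes, were near that share.

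Calls among the known targets of AP-1 went in both directions. Of 11 tested with CK666, Mmp13, a collagenase, was called higher (28.1 to 132 normalized counts, 2.24, SE 0.23), as was Lif (1.87), and Plau, the urokinase gene, lower (-1.60, SE 0.22). With CytoD Mmp13 was called higher (3.39, SE 0.23) and Hbegf (-2.34, SE 0.21) and Cd44 (-1.05, SE 0.12) lower, the last not with the library trends removed. In siArp4 the 4 called of 13 were all higher, with Mmp13 at 1.64 (SE 0.21), Hbegf at 1.59 (SE 0.22) and Spp1, osteopontin, at 1.39 (SE 0.11), and in siArp4+CK666 against siArp4 the 4 called were all lower, led by Plau (-3.19, SE 0.28). Of 9 known EGR1 targets 7 were tested, and 2 were called lower with CK666 and 3 lower in siArp4. Thbs1, thrombospondin 1, was at 10531 in CK666 against 111429 in control (-3.39, SE 0.16), Fgf2 fell by 1.29 with CK666 and by 1.57 in siArp4, the latter not called by edgeR and read from a gene that shares 640 exon bases with Nudt6, and F3, tissue factor, fell by 2.34 in siArp4 (SE 0.17), where Tgfb1 was the other call (-1.30). In siArp4+CK666 3 were called lower than in siControl, Fgf2 (-2.21), Thbs1 (-1.80) and Tgfb1 (-1.63). Against siArp4 F3 was called higher (1.44) and Thbs1 lower (-1.20), and both were called higher in the difference of CK666 effects (1.05 and 2.18). Medians over the EGR1 targets were -0.14 with CK666 and -0.60 in siArp4. Over all genes tested 11% were called with CK666, 9.12% with CytoD and 16.2% in siArp4. In siArp4+CK666 20.4% were called against siControl and 5.75% against siArp4, and 4.42% in the difference of CK666 effects.

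The genes whose log2 levels most resembled each member over the 18 libraries are given as a description, with libraries and their trends shared between all genes. For Egr1 these were Kctd17 (Pearson r 0.995) and Rab1a (0.993), for Jun the EMT factor Snai1 (0.964) and the growth factor Nrg1 (0.962), for Fosl2 Kat2b (0.943) and Rdh10 (0.936), and for Egr2 Fads2 (0.961) and Magee1 (0.957). Junb was most like Gtf2h5 (0.990) and Jund most like Sssca1 (0.986). Within the 10 members, the highest r was between Egr1 and Egr2 (0.862) and the lowest between Egr1 and Ier3 (-0.857).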

How the data were processed

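RNA-seq was performed in 6 groups of 3 libraries. The authors sequenced unstranded pairs and quantified transcripts with Salmon 1.2.1 at default settings (GENCODE vM25, GRCm38), and the deposited values are unscaled estimated counts, 1 per gene and library. The summing of transcripts to genes is not given in the sources used here. Estimated counts were rounded for the tests. Symbols and positions came from GENCODE vM21 (54094 of 54347 identifiers matched), and per-length values used its merged exons. DESeq2 1.42.0 (R 4.3.3, Wald test, two-sided, Benjamini-Hochberg over all genes) was fitted over the 9 libraries of each experiment, and over all 18 for the difference of CK666 effects and for siControl against control. Normalized counts used size factors over all 18 libraries. Counting error is not small for Fos and Fosb, nor for Egr2 where it was low (17.9 to 54.2 estimated counts in CK666, siArp4 and siArp4+CK666 libraries).

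Alternatives were edgeR 4.0.16 (quasi-likelihood), TMM scaling, a filter of 10 counts in 3 libraries, no fold change minimum, 1 fit of 18 libraries, only the 2 groups compared, a replicate block, leaving out each library and removal of lowess trends on length and GC. The tests were checked on simulated counts. Members and gene lists were chosen with earlier results of these data known. The genes named from a list were taken from its 3 called genes with the largest change and a mean of at least 50 normalized counts in a comparison, and not all of these are printed. Lif, and Ptgs2 with CK666, were named after their values were seen. Likeness used log2(normalized count + 1) over genes with a mean of at least 100.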

Additional observations from a re-analysis of the deposited data

Results flagged for a closer look

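The effect of CK666 on Fosl2 differed between the experiments, by a test of the difference itself. In untransfected cells Fosl2 was at 2916 ± 117 normalized counts (SD, n = 3) in control and 983 ± 175 in CK666, and in knockdown cells at 4704 ± 414 in siArp4 and 3934 ± 381 in siArp4+CK666. The difference of the log2 fold changes was 1.31 (95% interval 0.91 to 1.71, DESeq2 adjusted p 7.11e-09), and edgeR gave 1.30 with an adjusted p of 4.76e-04. All CK666 libraries of the first experiment were below the control libraries, while 1 of the 3 siArp4+CK666 libraries was above the lowest siArp4 library. Knockdown, transfection and experiment change together in this contrast and cannot be told apart.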

How the results depend on the processing

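Over the alternatives, 1415 single values of members kept their direction and side of the threshold, 23 newly passed, 39 no longer passed and 33 changed sign, and the causes were not tested. A call lost with a change of sign is counted as a sign change only, as for Ier3 in siControl against control with the trends removed. Some values could hardly move. The setting without a fold change minimum keeps every direction, and some libraries left out belong to groups outside the comparison. Without the fold change minimum 5 members were called for CK666 against control, 3 for CytoD against control, 7 between the compounds and 3 for the difference of CK666 effects, and over all genes 4381, 4067, 4779, 3867 (siArp4 against siControl), 1395 (siArp4+CK666 against siArp4), 1056 (difference) and 6103 (siControl against control) in place of 1599, 1251, 1778, 2494, 811, 597 and 3498. By edgeR 3 members were called for siArp4 and 2 for siArp4+CK666 against siControl, with 1752 and 2400 genes in all in place of 2494 and 3150, and over all genes 466 for siArp4+CK666 against siArp4 and 384 for the difference. With the length and GC trend removed 0 members were called for siArp4+CK666 against siArp4 and 3 for siControl against control, with 912 and 2643 genes in all in place of 811 and 3498, and 3 were called for the last with only the 2 groups compared.

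Replicate numbers gave no common pairing of the libraries (same-number correlations from -0.347 to 0.592). For control with CK666 all 3 same-number values (0.106, 0.0798 and 0.0565) were above those with other numbers. None were for control with CytoD, CK666 with CytoD, and siArp4 with siArp4+CK666, and the other pairs of groups were mixed. With the replicate block the 8 counts of members were 3, 1, 3, 5, 4, 1, 1 and 6, as without it, and Jund in siArp4 against siControl changed sign to 0.29. Genes in all were 1497 for CK666, 1172 for CytoD and 1687 between the compounds, in place of 1599, 1251 and 1778. For siArp4 and siArp4+CK666 against siControl they were 2390 and 3091 in place of 2494 and 3150. With the trend removed Jund was -0.13 for CK666, 0.68 for siArp4 and 0.37 for siArp4+CK666 against their controls, Junb 0.075 for siArp4+CK666 against siArp4, and Egr1 0.061 and Ier3 -0.050 for siControl against control.

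Leaving out 1 library gave 0 to 1 members called for siArp4+CK666 against siArp4 (0 without siArp4+CK666 replicate 1 or 3), 1 to 2 for the difference (Ier3 added without siControl replicate 1 or 2) and 2 to 6 for siControl against control (2 without siControl replicate 2). Calls over all genes with these libraries left out are not given, so the member counts are not read as particular to the members. Log2 fold changes that changed sign ran for CK666 against control from -0.29 to 0.075 (Junb) and -0.17 to 0.30 (Jund), and for CytoD from -0.12 to 0.42 (Fosb) and -0.21 to 0.074 (Egr2). For siArp4 against siControl they ran from -0.12 to 0.72 (Junb) and -0.46 to 0.92 (Jund), and for siArp4+CK666 against siControl from -0.13 to 0.041 (Fosl2), -0.13 to 0.70 (Junb) and -0.81 to 0.57 (Jund). For siArp4+CK666 against siArp4 they ran from -0.21 to 0.14 (Junb) and -0.17 to 0.0057 (Egr1), for the difference from -0.16 to 0.27 (Junb), and for siControl against control from -0.0045 to 1.40 (Jund, a call at its highest, without siControl replicate 1). Counts of Fos, Fosb and, in CK666 and knockdown libraries, Egr2 are low, which limits what could be detected for them.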
